A study of Mus musculus with 6 samples.

Results

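The 10 p53 target genes followed here are Cdkn1a, Mdm2, Bbc3, Pmaip1, Apaf1, Ccng1, Trp53inp1, Sesn2, Zmat3 and Phlda3. They were chosen as well-known targets of p53, but with earlier results of these data known. The shares of all genes set beside them below are thus descriptions. The genes were found by gene symbol among the 45037 probe sets of the arrays. A total of 18 probe sets named 1 of these genes and no other, and the brightest of these on average stood for each gene. All 10 passed the filter on dim genes, as did 16499 genes in all.

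Total RNA came from cultured fetal hepatocytes of Cnot3KO and control E16.5 mouse embryos, exposed to the transcription blocker actinomycin D (ActD) over 0, 6 or 12 h. In Cnot3KO embryos a floxed Cnot3 allele is deleted by Cre recombinase driven from the albumin promoter, so deletion is limited to cells that express albumin, and the study describes it as incomplete in the fetal liver and efficient after culture. Control embryos are labelled wild type, but the study's methods also allow floxed alleles without Cre, or Cre with at most 1 floxed allele, as controls. Cells of both genotypes were cultured with oncostatin M and dexamethasone, and the number of embryos behind an array is not given in the sources used here. There was 1 array for each genotype and time.

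p53 is a transcription factor that is stabilised by DNA damage and other stresses and binds response elements near its targets. Those targets arrest the cell cycle, start apoptosis, restrain growth signals or, in the case of Mdm2, return p53 to a low level. Many of the mRNAs are short-lived. Cnot3 belongs to the Cnot complex, which removes poly(A) tails and so starts the decay of mRNAs. p53 itself was not analysed here.

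Before ActD, Cdkn1a and Bbc3 were 2.03-fold and 1.93-fold higher in Cnot3KO than in control hepatocytes, and the other 8 genes were within 1.5-fold of control. A difference over 1.5-fold upward was seen in 6.71% of all genes at that time. After 12 h of ActD, 9 of the 10 genes were more than 1.5-fold higher in Cnot3KO hepatocytes, against 27.4% of all genes, with Mdm2 at 7.61-fold, Apaf1 at 5.02-fold and Phlda3 at 3.11-fold. In control hepatocytes Mdm2 and Apaf1 were at 32% and 15.2% of their level before ActD by then, while in Cnot3KO hepatocytes Mdm2 was at 184% and Apaf1 at 69.3%. Of the 10, Cdkn1a and Bbc3 passed the test of the genotype difference over the 3 times after adjustment over all genes, which 0.703% of all genes passed as higher, and 0 genes in all passed the test of the difference in decay.

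The promoters are shown because several of these genes hold p53 half-sites there. RefSeq promoter windows of assembly GRCm38.p6 were used, each with 250 bases before and 50 after a transcription start. Those used covered 7 of the 10 genes, with 10 windows among them. For Pmaip1, Trp53inp1 and Zmat3 no window was searched, so nothing is said of their promoters. The windows were searched for the p53 half-site consensus, a pair of which makes up a full response element. It reads alike on both strands, and it is given by its name alone because it needs letters for more than 1 base. At least 1 half-site was in 1 window each of 3 genes, out of the 10 windows, and in 8.36% of all 32851 windows. The stretches below are on the strand of the gene, 5′ to 3′, with each half-site in capitals. The Cdkn1a stretch is chr17:29090892-29090951 on the plus strand, the Mdm2 stretch chr10:117710910-117710969 on the minus strand and the Ccng1 stretch chr11:40755437-40755496 on the minus strand.
Cdkn1a: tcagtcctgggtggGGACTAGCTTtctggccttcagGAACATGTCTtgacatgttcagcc
Mdm2: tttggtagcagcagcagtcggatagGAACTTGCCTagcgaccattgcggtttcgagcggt
Ccng1: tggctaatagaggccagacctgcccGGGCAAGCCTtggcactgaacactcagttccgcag

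The first Cdkn1a half-site lies 73 bases before the first of the 2 annotated starts, the Mdm2 half-site 186 bases and the Ccng1 half-site 185 bases before theirs. A pair of half-site cores in one spacing, CATGNNNNNNCATG, which also reads alike on both strands, was in 0.712% of all windows and among these genes in that of Cdkn1a. It overlaps the second capital stretch there. No half-site was found in the window of the second Cdkn1a start or in the windows of Bbc3, Apaf1, Sesn2 and Phlda3. A match of letters is a description and does not show that p53 binds there, and the windows leave out sites further away or within introns.

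The intensities of the 10 genes are given in arbitrary units as deposited, after the Robust Multi-array Average (RMA), which sets each array on the same distribution. Values after ActD thus give a gene's share among all mRNAs still present, and the total loss of mRNA is not visible. Over all genes kept, the median of the log2 difference between Cnot3KO and control was 0.03 at 0 h, −0.05 at 6 h and −0.03 at 12 h.

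**Figure D1:**
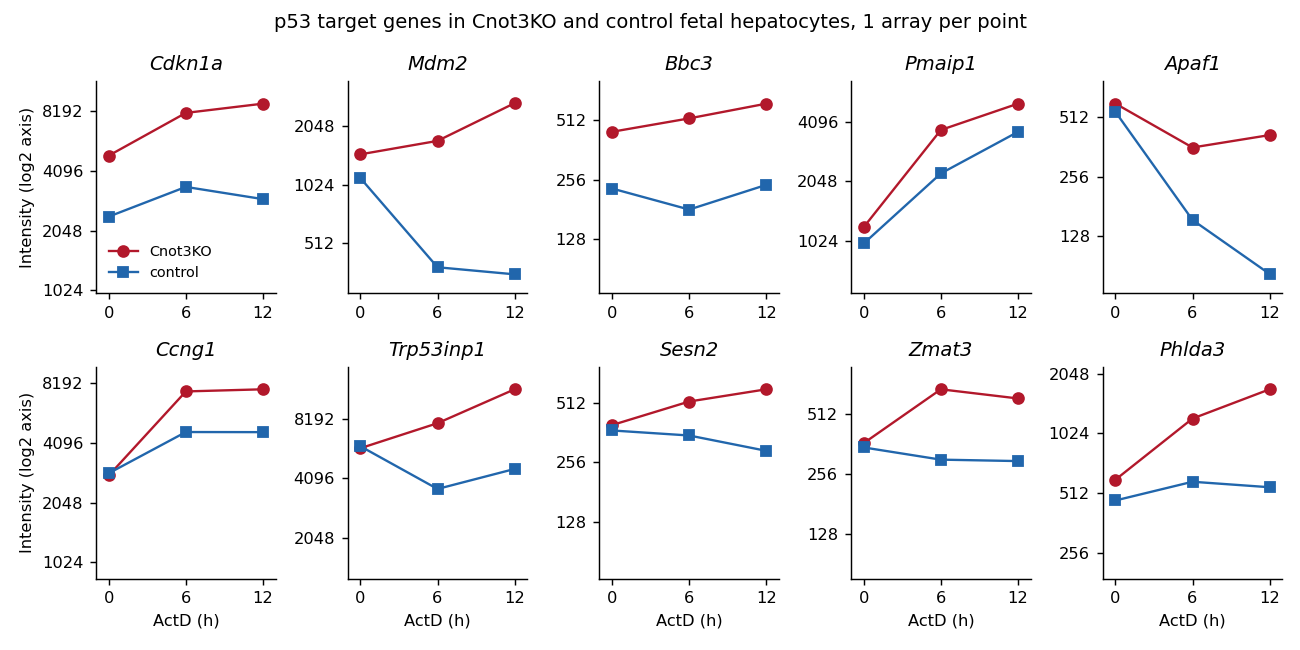
Intensity of each p53 target gene, on a log2 axis, against hours of ActD in Cnot3KO (red circles) and control (blue squares) hepatocytes, with 1 array per point and no error bars. The lines lie apart at all times for Cdkn1a and Bbc3, while those of Ccng1, Trp53inp1, Sesn2 and Zmat3 start within 1.10-fold of each other and part after ActD.

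Cdkn1a, which encodes the Cdk inhibitor p21, is the member that arrests the cell cycle. Its intensity was 4884, 8014 and 8921 in Cnot3KO hepatocytes at 0, 6 and 12 h of ActD, against 2408, 3398 and 2949 in control hepatocytes. Every Cnot3KO value lay above every control value, and in both genotypes the level after ActD was above that before it. The difference was 2.03-fold at 0 h, 2.36-fold at 6 h and 3.02-fold at 12 h. Over the 3 times it was 1.29 ± 0.17 (log2, SE, n = 3 times) with an adjusted p of 0.0499 by limma, so Cdkn1a rose in Cnot3KO hepatocytes by this test, close to the threshold of 0.05. The second Cdkn1a probe set read 4197, 7102 and 7818 in Cnot3KO hepatocytes, against 1981, 3404 and 3042 in control hepatocytes, with differences of 2.12-fold, 2.09-fold and 2.57-fold, and did not pass, with an adjusted p of 0.0543 by limma over all 45037 probe sets.

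Ccng1 encodes cyclin G1, which recruits a protein phosphatase to Mdm2 and does not drive the cycle as other cyclins do. Its intensity was 2804, 7430 and 7616 in Cnot3KO hepatocytes, against 2877, 4640 and 4634 in control hepatocytes. The 0 h values of both genotypes were close to each other and the values after ActD were higher in both, more so in Cnot3KO, where the level at 12 h was 2.72-fold that at 0 h, against 1.61-fold in control. The genotype difference was −0.04, 0.68 and 0.72 (log2) at 0, 6 and 12 h. A second Ccng1 probe set differed at 0 h, with 3326 in Cnot3KO and 2095 in control hepatocytes, and 1 more set did not, with 1232 and 1209, so the start level of Ccng1 depends on the probe set.

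Mdm2, the ubiquitin ligase that marks p53 for destruction and is itself a p53 target, showed the largest genotype difference of the 10 genes after ActD. Its intensity was 1469, 1723 and 2695 in Cnot3KO hepatocytes, against 1108, 385 and 354 in control hepatocytes. The Cnot3KO values all lay above the control values, and the control values after ActD were the lowest by a wide margin. The difference was 1.33-fold before ActD, 4.47-fold at 6 h and 7.61-fold at 12 h. Over the 3 times it was 1.83 ± 0.46 (log2, SE, n = 3 times), and limma gave an adjusted p of 0.067, short of the threshold. A second Mdm2 probe set read 617, 689 and 1244 in Cnot3KO hepatocytes, against 357, 197 and 194 in control hepatocytes, with the same order of values. The other set of Mdm2 lay below the median of every array, between 37.9 and 54.6, and its differences were within 1.5-fold.

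Of the members that act in apoptosis, Bbc3 encodes Puma, a protein that blocks the survival proteins of the Bcl2 family. Its intensity was 446, 521 and 618 in Cnot3KO hepatocytes, against 231, 181 and 241 in control hepatocytes. As with Cdkn1a, all Cnot3KO values were above all control values from the first time on. The difference was 1.93-fold, 2.87-fold and 2.56-fold at 0, 6 and 12 h, and over the 3 times 1.28 ± 0.17 (log2, SE, n = 3 times), with an adjusted p of 0.0499 by limma. Bbc3 rose in Cnot3KO hepatocytes by this test, again close to the threshold, and has 1 probe set.

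Pmaip1 encodes Noxa, a related protein that acts mainly on Mcl1. Its intensity was 1207, 3721 and 5049 in Cnot3KO hepatocytes, against 998, 2248 and 3640 in control hepatocytes. Both genotypes climbed steeply after ActD and their values overlapped. At 12 h the level was 4.18-fold that at 0 h in Cnot3KO and 3.65-fold in control hepatocytes, and the change over both genotypes was 1.97 ± 0.19 (log2, SE, n = 2 genotypes), with an adjusted p of 0.0153 by limma. Pmaip1 was the only 1 of the 10 that rose by this test, against 2.24% of all genes, and 0 fell, against 4.53%. Pmaip1 no longer passed without the arrays of 6 h. Without those of 0 h the test was of the change from 6 to 12 h, which Pmaip1 did not pass. At an unadjusted p of 0.05 Cdkn1a, Ccng1 and Phlda3 were also higher after 12 h, 4 of the 10 against 14.0% of all genes, and Apaf1 was lower, against 15.8%. The genotype difference in Pmaip1 was 1.21-fold, 1.66-fold and 1.39-fold at the 3 times and did not pass, at 0.49 ± 0.16 (log2, SE) and an adjusted p of 0.0944 by limma.

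Apaf1 is the scaffold of the apoptosome, on which caspase 9 is activated. Its intensity was 600, 360 and 416 in Cnot3KO hepatocytes, against 545, 155 and 82.7 in control hepatocytes. The values overlapped, since control cells before ActD were above Cnot3KO cells after it, but at 6 and 12 h the control values were by far the lower. In Cnot3KO hepatocytes 60% and 69.3% of the 0 h level was measured at 6 and 12 h, in control hepatocytes 28.4% and 15.2%. The second Apaf1 probe set, with 127, 66.8 and 70.3 in Cnot3KO and 93.7, 27.4 and 30.5 in control hepatocytes, gave a smaller difference at 12 h, 2.30-fold against the 5.02-fold of the first.

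Trp53inp1 encodes a stress-induced nuclear protein that promotes autophagy and cell death. Its intensity was 5816, 7772 and 11515 in Cnot3KO hepatocytes, against 5947, 3626 and 4572 in control hepatocytes. Both genotypes started at a like level, and after ActD the Cnot3KO values were above that level and the control values below it. The genotype difference was −0.03, 1.10 and 1.33 (log2) at 0, 6 and 12 h. The second, dimmer probe set of Trp53inp1 gave smaller differences of 0.29, 0.41 and 0.76, and its control value was higher at 12 h than at 0 h, with 111 and 83.4, unlike that of the first.

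Phlda3 encodes a protein that competes with Akt for membrane lipids and so restrains growth signals. Its intensity was 598, 1215 and 1706 in Cnot3KO hepatocytes, against 470, 584 and 548 in control hepatocytes. All Cnot3KO values were above all control values, and most of the distance between the genotypes appeared after ActD. The difference was 1.27-fold, 2.08-fold and 3.11-fold at 0, 6 and 12 h. Over the 3 times it was 1.01 ± 0.26 (log2, SE, n = 3 times), with an adjusted p of 0.068 by limma.

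Sesn2 encodes a sestrin that lowers mTORC1 activity under stress. Its intensity was 395, 519 and 598 in Cnot3KO hepatocytes, against 371, 350 and 293 in control hepatocytes. The 2 genotypes moved apart in opposite directions, and the lowest Cnot3KO value was just above the highest control value. The difference was 1.07-fold, 1.48-fold and 2.04-fold at 0, 6 and 12 h. The second Sesn2 probe set already differed at 0 h, with 119 in Cnot3KO and 82.3 in control hepatocytes, and by 2.63-fold at 12 h, with 213 and 80.7.

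Zmat3 encodes a zinc finger protein that binds RNA. Its intensity was 367, 685 and 616 in Cnot3KO hepatocytes, against 349, 303 and 298 in control hepatocytes. All Cnot3KO values were above all control values, by a narrow margin at 0 h and by more than 2-fold after ActD. The difference was 1.05-fold, 2.26-fold and 2.07-fold at 0, 6 and 12 h.

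**Figure D2:**
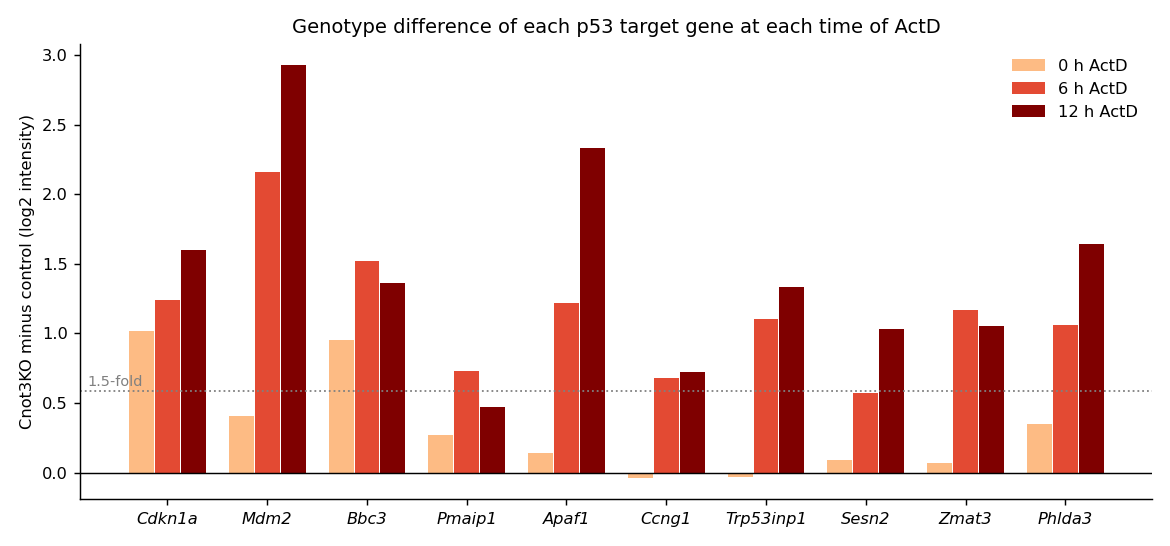
Cnot3KO minus control (log2 intensity) of each p53 target gene at 0, 6 and 12 h of ActD, from light to dark, each bar from 1 array per genotype, with a dotted line at 1.5-fold. The bars of 6 and 12 h are higher than the bar of 0 h in all 10 genes, and at 0 h only Cdkn1a and Bbc3 pass the line.

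Taking the genotype difference of the 10 genes together, the median at 0 h was 0.21, against 0.03 over all genes kept (log2). At that time 2 of the 10, Cdkn1a and Bbc3, were over 1.5-fold higher in Cnot3KO hepatocytes, a rule met by 6.71% of all genes. At 6 h the median was 1.14, against −0.05 over all genes, and 9 of the 10 were over 1.5-fold higher, all but Sesn2, against 17.8% of all genes. At 12 h the median was 1.35, against −0.03, and 9 of the 10 were over 1.5-fold higher, all but Pmaip1, against 27.4% of all genes. None was over 1.5-fold lower at any time, against 2.92%, 7.13% and 13.8% of all genes at 0, 6 and 12 h. In all 10 the difference was larger at 6 and 12 h than at 0 h, against 34.4% of all genes. As a guide to technical error, the difference at 0 h had an SD of 0.24 (log2) between probe sets of 1 gene, taken from the spread of the difference between both over 4079 genes with a pair of probe sets above the median of every array, and the differences of Apaf1, Ccng1, Trp53inp1, Sesn2 and Zmat3 at 0 h were smaller than that.

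For the genotype difference over the 3 times limma was run with time as a factor, so that the p-values measure the spread over times and not over embryos. It passed at an adjusted p of 0.05 for 2 of the 10 genes, Cdkn1a and Bbc3, and 0 passed as lower, against 0.703% and 0.285% of all genes. At an unadjusted p of 0.05, 9 of the 10 were higher, all but Ccng1, and 0 were lower, against 22.4% and 11.0% of all genes. The fitted differences of the 10 genes ranged from 0.45 for Ccng1 to 1.83 for Mdm2, with a median of 0.91, against −0.03 over all genes. The adjusted p of the 8 that did not pass lay between 0.067 and 0.171. In 6 of the 10, all but Pmaip1, Apaf1, Ccng1 and Trp53inp1, the 3 Cnot3KO values lay above the 3 control values, against 15.9% of all genes, and in 0 below them, against 12.0%. At each single time 8 of the 10 were above control, all but Ccng1 and Trp53inp1, against 30.5%. Both calls were lost with no filter on dim genes (adjusted p 0.0512 by limma), with a stricter filter at the 50th percentile (0.0577), with arrays centred on ribosomal protein genes (0.084) and with an offset of 16 (0.0617). Without the 6 h arrays Cdkn1a and Bbc3 had an adjusted p of 0.371 by limma, and without the 12 h arrays 0.0548 and 0.0579. Without the 0 h arrays all 10 genes passed, as did 5810 of the 16499 genes in all, on 4 arrays that had all been exposed to ActD.

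**Figure D3:**
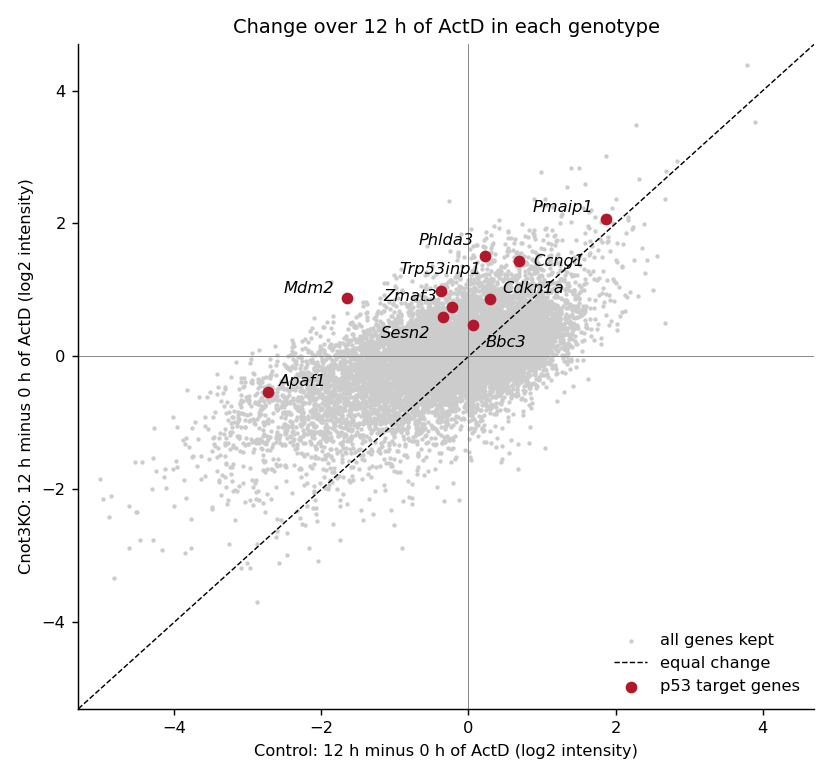
Change in log2 intensity over 12 h of ActD in Cnot3KO hepatocytes (vertical) against the change in control hepatocytes (horizontal), with the 10 p53 target genes in red and all genes kept in grey. All 10 lie above the dashed line of equal change, Mdm2 and Apaf1 farthest from it and Pmaip1 closest.

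The change after ActD is the comparison meant to follow mRNA decay, and was taken within each genotype. Transcription that may have gone on under ActD was not measured, so the change need not be decay alone. By 6 h in Cnot3KO hepatocytes, 5 of the 10 genes, Cdkn1a, Pmaip1, Ccng1, Zmat3 and Phlda3, were over 1.5-fold above their 0 h level, against 3.69% of all genes, and Apaf1 was over 1.5-fold below it, against 7.50%. By 6 h in control hepatocytes, Pmaip1 and Ccng1 were over 1.5-fold above it, against 9.61% of all genes, and Mdm2, Apaf1 and Trp53inp1 over 1.5-fold below it, against 15.7%. At the later time the split between the genotypes was wider. In Cnot3KO hepatocytes 8 of the 10 genes were over 1.5-fold higher at 12 h than at 0 h, all but Bbc3 and Apaf1, against 9.72% of all genes, and 0 were over 1.5-fold lower, against 10.5%. In control hepatocytes Pmaip1 and Ccng1 were over 1.5-fold higher, against 18.9% of all genes, and Mdm2 and Apaf1 over 1.5-fold lower, against 23.2%. The median change of the 10 genes was 0.87 in Cnot3KO and −0.09 in control hepatocytes, against 0.08 and 0.15 over all genes (log2). Mdm2, Trp53inp1, Sesn2 and Zmat3 were above their 0 h level in Cnot3KO and below it in control hepatocytes at both times, a pattern of 6.24% of all genes. The control falls of Trp53inp1, Sesn2 and Zmat3 at 12 h were smaller than 0.50 (log2), the SD of that change between probe sets of 1 gene. Because the values are relative, a gene above its 0 h level may have lost less mRNA than the average gene. This cannot be told apart here from mRNA made under ActD.

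The difference in change over 12 h, Cnot3KO minus control, was above 0 in all 10 genes, against 47.1% of all genes, and over 1.5-fold in 7, all but Cdkn1a, Bbc3 and Pmaip1, against 22.9%, with 0 over 1.5-fold lower, against 12.3%. It was 2.52 ± 0.56 for Mdm2, 2.19 ± 0.52 for Apaf1, 1.36 ± 0.45 for Trp53inp1 and 1.29 ± 0.35 for Phlda3 (log2, SE, limma with hours as a number). For Zmat3 it was 0.98 ± 0.45, for Sesn2 0.93 ± 0.29 and for Ccng1 0.75 ± 0.58. The genes with the largest differences before ActD had small ones here, with 0.58 ± 0.41 for Cdkn1a and 0.41 ± 0.37 for Bbc3, and Pmaip1 had the smallest, 0.20 ± 0.51. The difference at 0 h is subtracted in this quantity, so a high value at 0 h lowers it by construction. None of the 10, and 0 of all genes tested, passed at an adjusted p of 0.05 by limma. At an unadjusted p of 0.05, 5 of the 10 were higher, namely Mdm2, Apaf1, Trp53inp1, Sesn2 and Phlda3, against 12.8% of all genes, and 0 were lower, against 4.95%. The median over the 10 was 0.96, against −0.04 over all genes, for which the range from the 5th to the 95th percentile was −0.81 to 1.55. At 6 h the difference in change was above 0 in all 10 as well, against 43.7% of all genes, over 1.5-fold higher in 6, against 12.4%, and over 1.5-fold lower in 0, against 5.09%. The changes at 6 h and 12 h share the 0 h arrays of each genotype, so they are not separate evidence. Each difference in change also equals the genotype difference at that time minus that at 0 h. Its sign in all 10 thus restates the larger genotype differences after ActD given above.

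**Figure D4:**
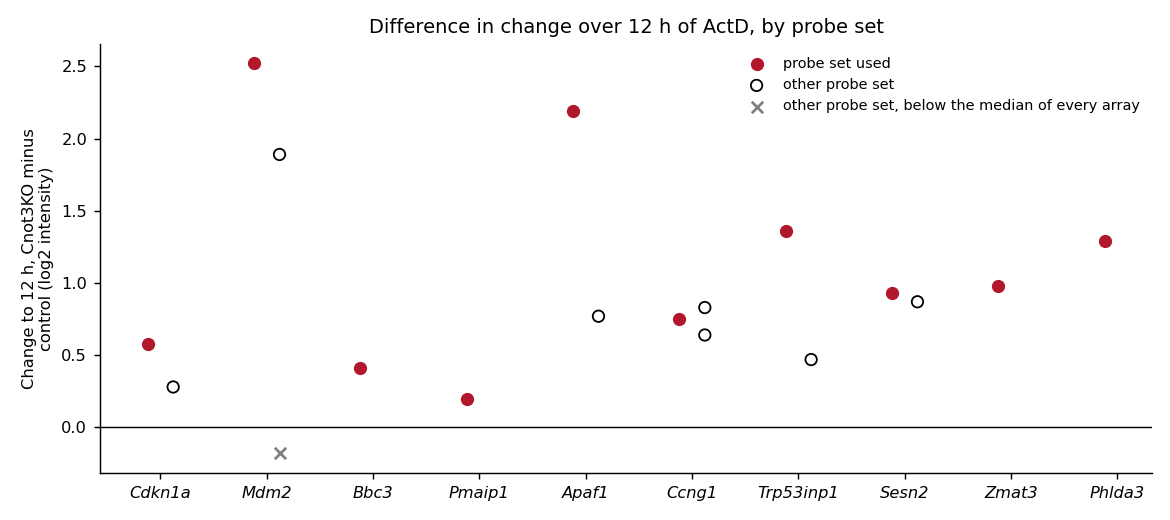
Difference in change over 12 h of ActD, Cnot3KO minus control (log2 intensity), for the probe set used for each p53 target gene (red) and for its other probe sets (open circles, or a cross for a set below the median of every array). All probe sets but the dim one of Mdm2, at −0.18, lie above 0, and the sets of Apaf1 and Trp53inp1 lie far apart.

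Among the 6 genes with other probe sets, the difference in change was 0.28 for the second set of Cdkn1a, 1.89 for that of Mdm2, 0.77 for that of Apaf1, 0.47 for that of Trp53inp1 and 0.87 for that of Sesn2 (log2). The other sets of Ccng1 gave 0.83 and 0.64. The SD of this quantity between probe sets of 1 gene was 0.42 over the same 4079 genes. The differences of Bbc3 and Pmaip1 were below that SD, and those of the other 8 genes above it in the probe set used.

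Over the 6 arrays the 10 genes did not share 1 pattern. Pearson's r of log2 intensity was 0.94 for Cdkn1a with Phlda3 and for Sesn2 with Zmat3, 0.93 for Pmaip1 with Ccng1 and 0.92 for Mdm2 with Trp53inp1, while it was −0.45 for Apaf1 with Pmaip1. These describe 6 arrays that share genotypes and times. Among 12820 genes above the median of an array, those most like Cdkn1a over the 6 arrays were Ddx47, an RNA helicase (r = 0.999), Psma4, a proteasome subunit (0.997), Polr3f, a subunit of RNA polymerase III (0.997), Dgka, a diacylglycerol kinase (0.993), and Hes6, a transcription factor of the Hes family (0.993). None is a member. Dgka read 422, 564 and 695 in Cnot3KO hepatocytes, against 210, 268 and 248 in control hepatocytes. Pearson's r does not reflect the size of a difference. Polr3f differed less, with 189, 221 and 227 in Cnot3KO and 158, 169 and 167 in control hepatocytes.

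**Figure D5:**
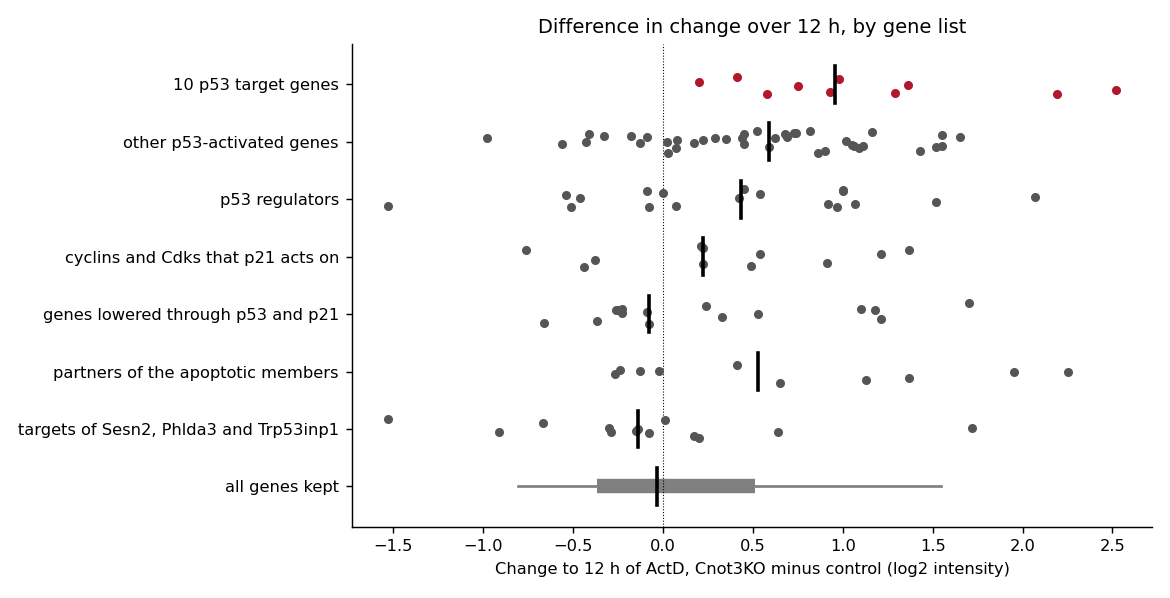
Difference in change over 12 h of ActD, Cnot3KO minus control (log2 intensity), for each gene of the 10 p53 target genes (red) and of 6 related lists (dark grey points), with the median of each as a black bar. The bottom line shows all genes kept, from the 5th to the 95th percentile with the middle part thick from the 25th to the 75th. Its median of −0.04 lies below the medians of 0.96 for the p53 target genes and 0.59 for other p53-activated genes. The medians were 0.53 for partners of the apoptotic members, 0.43 for p53 regulators and 0.22 for the list of cyclins and Cdks, which holds Pcna. They were −0.08 for genes lowered through p53 and p21 and −0.14 for targets of Sesn2, Phlda3 and Trp53inp1.

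Of 45 further genes that p53 activates, 41 were measured. Their median difference in change was 0.59 (log2), and 21 were over 1.5-fold higher in Cnot3KO and 1 lower, against 22.9% and 12.3% of all genes. The only 1 to pass the genotype test was Tgfa, a growth factor, which fell in Cnot3KO hepatocytes, with 795, 521 and 411 against 1923, 1373 and 885 in control hepatocytes, and an adjusted p of 0.0499 by limma. Like every other gene it did not pass without the 6 h arrays. The following 4 were picked after their values were seen. Plk2, a kinase of the stress response, read 1745, 4125 and 6185 in Cnot3KO and 1413, 1294 and 1749 in control hepatocytes. Btg2, an antiproliferative protein that binds the Cnot complex, read 1555, 3430 and 6465 in Cnot3KO and 1408, 1851 and 1871 in control hepatocytes. Ercc5, a nuclease of DNA repair, and Ppm1d, a phosphatase that turns the p53 response off, each had a difference in change of 1.55. At an unadjusted p of 0.05, 18 of the 41 were higher in Cnot3KO over the 3 times and 3 lower, against 22.4% and 11.0% of all genes.

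Of 20 listed symbols of p53 regulators, 18 were measured. Rfwd2, not measured under that symbol, is an older name of Cop1, which was measured. By limma 0 passed the genotype test after adjustment. At an unadjusted p of 0.05, 8 were higher and 1 lower, against 22.4% and 11.0% of all genes. The largest differences at 0 h were those of Trp53bp2, which directs p53 to apoptotic genes, with 0.81, and Daxx, a histone chaperone that binds Mdm2, with 0.74 (log2). Mdm4, the partner of Mdm2, which was picked after its values were seen, was close between the genotypes at 0 and 6 h, and read 335, 196 and 206 in Cnot3KO and 332, 182 and 105 in control hepatocytes.

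Of 12 genes whose products p21 acts on, namely cyclins, Cdks and Pcna, 11 were measured, and 0 passed the adjusted test by limma. At an unadjusted p of 0.05, 5 were higher, Pcna among them, and 2 lower, against 22.4% and 11.0% of all genes. Ccna2, the cyclin of S phase, differed by 0.68 and Cdk1, the mitotic kinase, by 0.48 at 0 h (log2). Of 16 genes that are lowered through p53 and p21, 15 were measured, with 0 past the adjusted test and 7 higher and 1 lower without adjustment, set against the same shares. Mybl2, a transcription factor of proliferating cells, differed by 0.85 and Cdc20, an activator of mitotic exit, by 0.75 at 0 h. These 4 are named for the size of their difference at 0 h, and the median over the list of cyclins, Cdks and Pcna was −0.00 at that time.

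Of 13 partners of the apoptotic members, 10 were measured, with 0 past the adjusted test by limma and 3 higher and 0 lower at an unadjusted p of 0.05, against 22.4% and 11.0% of all genes. The median difference in change was 0.53 (log2). Bcl2l11, the killer protein Bim, read 593, 440 and 409 in Cnot3KO and 895, 333 and 283 in control hepatocytes. Bid, which carries the signal of death receptors to mitochondria, read 721, 415 and 702 in Cnot3KO and 504, 166 and 127 in control hepatocytes. Of 13 proteins through which Sesn2, Phlda3 and Trp53inp1 act, all were measured, with 0 past the adjusted test and 2 higher and 4 lower without adjustment, set against the same shares. Hipk2, a kinase of p53, had 2805, 1463 and 720 in Cnot3KO and 4569, 3856 and 3395 in control hepatocytes, and Tsc1, a brake on mTORC1, differed by 0.42 at 0 h.

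Among values that touch the genotype difference, Cnot3 itself was measured by a pair of probe sets whose place relative to the deleted exons is not known here, so neither checks the deletion. The brighter read 174, 174 and 146 in Cnot3KO and 296, 214 and 158 in control hepatocytes, and limma gave an adjusted p of 0.182. The dimmer read 155, 161 and 178 in Cnot3KO and 160, 211 and 232 in control hepatocytes, with a difference of −0.05 at 0 h, against −0.77 for the brighter (log2). All 10 hepatocyte markers were measured and 0 of them lay below the median of every array. Their summed intensity was 170336 to 178109 in Cnot3KO and 168648 to 187488 in control hepatocytes. This sum rests mainly on Alb, Apoa1, Ttr, Afp and Fgb, whose genotype differences lay between −0.14 and 0.10 (log2) at each time. Of the hepatocyte markers 1, Cps1, passed the genotype test as lower in Cnot3KO, while Hnf4a differed by 0.33, 0.57 and 0.66 (log2). The summed intensity of 7 macrophage markers was 5472 to 5578 in Cnot3KO and 6647 to 8432 in control hepatocytes, and 1 of them, Vsig4, passed as lower in Cnot3KO. That of 6 endothelial markers was 259 to 739 in Cnot3KO and 435 to 1187 in control, with Pecam1 and Tek below the median of every array. That of 6 of 7 stellate cell and fibroblast markers was 5112 to 7702 in Cnot3KO and 10039 to 11459 in control, and that of 4 of 7 cholangiocyte markers 26324 to 29592 in Cnot3KO and 15248 to 20310 in control. The cholangiocyte sum rests mainly on Krt19, with 14661 in Cnot3KO and 6691 in control at 0 h, and on Krt7. At 0, 6 and 12 h Sox9 differed by −0.28, 0.13 and 0.32 and Epcam by 0.67, 0.08 and −0.14 (log2). Erythroid markers, 4 of 6 measured, summed to 255 to 266 in Cnot3KO and 301 to 357 in control, and leukocyte markers, 5 of 7, to 1110 to 2017 and 1171 to 3046. Fewer cells of a type and less RNA per cell cannot be told apart in such RNA, and the part of other cell types in the values of the 10 genes was not tested.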

How the data were processed

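Total RNA of fetal hepatocytes was hybridised to Affymetrix mouse expression arrays, 6 in all, and groups and times were taken from the sample labels. The intensity values that the authors deposited had been computed with RMA, whose version is not given in the sources used here, and stand on a linear scale, so log2 was taken. The table held 45037 probe sets with 0 missing values. Per the platform annotation 34945 named 1 gene, 932 several and 9160 none, while 99.1% of gene identifiers were found in RefSeq (GRCm38.p6). Each gene was represented by the brightest probe set that named it alone (18193 genes), and was kept if above the 20th percentile of an array on at least 1 array (16499 genes). The 20th percentile was 19.7 to 22.4 and the median 69.7 to 72.4, and Spearman's rho between arrays was 0.935 to 0.993. The number of arrays limits the precision.

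The genotype difference and the change over 12 h were tested with limma 3.58.1 in R 4.3.3 (genotype and time as a factor), the difference in decay with genotype by hours, both with 2 residual degrees of freedom, two-sided, with Benjamini-Hochberg adjustment over all genes kept. Single times have 1 array per genotype and no test, and were counted beyond 1.5-fold. Scripts were tested on simulated data. All 10 members are named. From each related list up to 4 genes past the genotype test are named, or else the 2 with the largest difference at 0 h, plus the 5 genes most like Cdkn1a, and others are marked where they stand. The members and lists were chosen with earlier results of these data known. Alternatives covered the filter, the probe set, the scaling, an offset of 16, a variance trend, hours as a number and leaving out each time.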

Additional observations from a re-analysis of the deposited data

Results flagged for a closer look

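In 4 genes the values after ActD moved in opposite directions in the 2 genotypes, above the 0 h level at 6 and 12 h in Cnot3KO hepatocytes and below it at both times in control hepatocytes. The difference in change over 12 h, Cnot3KO minus control, was 2.52 for Mdm2, 1.36 for Trp53inp1, 0.98 for Zmat3 and 0.93 for Sesn2 (log2). Each genotype has 1 array per time, and none of the 4 differences passed the limma test of the difference in decay after adjustment over all genes. The adjusted p was 0.181 for Mdm2, 0.23 for Trp53inp1, 0.317 for Zmat3 and 0.216 for Sesn2. The pattern was seen in 6.24% of all genes. The second probe sets of Mdm2 and Sesn2 showed it too, the latter with control at 98.1% of its 0 h level at 12 h. That of Trp53inp1, whose control values were higher after ActD than before, did not, and nor did the dim set of Mdm2. In control hepatocytes the change to 12 h was −1.65 for Mdm2, −0.38 for Trp53inp1, −0.34 for Sesn2 and −0.23 for Zmat3 (log2). Those of Trp53inp1, Sesn2 and Zmat3 were smaller in size than 0.50, the SD of this change between probe sets of 1 gene.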

How the results depend on the processing

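The direction of the genotype difference held for all 10 genes in every alternative run, but its calls lie at the threshold. For Mdm2 the difference was only 0.06 (log2) without shared-sequence probe sets, where its dim set alone is left, against 1.83. Against 163 genes in all and 2 of the 10, 0 and 0 passed with no filter (5761 genes without adjustment), with a filter at the 50th percentile (4887), centred on ribosomal protein genes (5421) and with an offset of 16 (5484). With the mean of probe sets 1625 and 4 passed, centred on Gapdh 2639 and 5, and 649, 2063 and 1756 in all without shared-sequence probe sets, with a variance trend and with hours as a number. Leaving out each time gave 0 (without 6 h) to 5810 (without 0 h) and 0 to 10 members. Centring on Gapdh moves the median of all genes at 12 h to −0.31.

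The change at 12 h passed for 1116 genes, for 454 centred on ribosomal protein genes, for 2153 centred on Gapdh and for 0 without 6 h. Leaving out 12 h or 0 h makes it another comparison. Without 12 h it was the change from 0 to 6 h, with 878 genes. Without 0 h it was the change from 6 to 12 h, with 205 genes. Against 1 member higher and 0 lower, 2 and 1 passed with the mean of probe sets and centred on Gapdh, 2 higher with a variance trend, and 0 to 2 higher and 0 to 1 lower with a time left out. Of members over 1.5-fold changed at 12 h, 1 was lower in Cnot3KO with the mean of probe sets. In control hepatocytes 1 was higher and 1 lower without shared-sequence probe sets, and 1 higher centred on ribosomal protein genes.

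The difference in decay changed sign for Mdm2 without shared-sequence probe sets (−0.18, where only the dim set is left), for Pmaip1 centred on Gapdh (−0.02), and without the 0 h arrays, on 4 arrays with no test, for Bbc3 (−0.33), Pmaip1 (−0.51) and Zmat3 (−0.25). Scaled to 12 h in the same way, these 3 were at 1.15, 0.90 and 2.21, without the 12 h arrays. The genotype test compared the genotypes within each time, since time was a factor. No pairing of replicates was possible, because there was 1 array for each genotype and time.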

Other observations

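Among the further genes that p53 activates, 4 of 41 rose over 12 h of ActD over both genotypes, against 2.24% of all genes, by the limma test across all genes, with adjusted p between 0.0153 and 0.0416, and none of them passed the test of the genotype difference. Dcxr, a carbonyl reductase, read 636, 1581 and 2992 in Cnot3KO hepatocytes at 0, 6 and 12 h, against 542, 1276 and 2087 in control hepatocytes. Triap1, an inhibitor of apoptosome assembly, read 381, 674 and 857 in Cnot3KO hepatocytes, against 373, 654 and 1117 in control hepatocytes. Perp, a membrane protein of desmosomes, and Lif, a cytokine of the interleukin 6 family, had genotype differences over the 3 times of −0.14 and 0.03 (log2). Tgfa fell by the same test, against 4.53% of all genes. The 4 are named because they are all of that list that passed as higher.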
